A study of Arabidopsis thaliana with 12 samples.

Results

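The regions described here are 500 bp windows of the Arabidopsis thaliana genome that were listed as siRNA regions for the first repeat of a small RNA sequencing experiment and not for the second. Of 6125 regions listed in either repeat, 1568 met this rule. They were chosen by exact coordinates, and the 62 such regions on chromosome 4 with listed starts from 900000 to below 2900000 were left out. Another 4213 regions were listed in both repeats and 282 in the second repeat only. The chromosome 4 stretch was left out of the 1568 regions alone, so the sets compared with them below keep any regions there.

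The experiment measured small RNAs in whole seedlings of wild type and 5 mutants in 2 repeats, and asks how components of the PEAT complexes relate to siRNAs at silenced chromatin. Each region has 1 wild-type score and 5 mutant scores here, all from repeat 1. The mutants were nrpd1-/-, nrpe1-/-, the triple mutant arid2-/-arid3-/-arid4-/- (called arid2/3/4), the double mutant epcr1-/-epcr2-/- (called epcr1/2) and hda6, whose repeat 1 genotype label reads had-/-. All 6 libraries came from 10-day-old seedlings on plates kept at 22 °C in days of 16 h light and nights of 8 h. The labels name neither the ecotype nor the alleles. Because each genotype has 1 library, no spread between replicates exists for these regions, no test was made, and each ratio compares 2 libraries rather than 2 genotypes.

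In plants, short interfering RNAs guide DNA methylation to transposons and other repeats. RNA polymerase IV, whose largest subunit is NRPD1, transcribes the siRNA precursors, and RNA polymerase V, whose largest subunit is NRPE1, makes the scaffold transcripts to which siRNAs pair. HDA6 is a histone deacetylase known for silencing of transposons and ribosomal RNA genes. The ARID and EPCR proteins are subunits of PEAT, a plant complex tied to histone deacetylation and silencing of heterochromatin.

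The sequences below are stretches of 200 bases from regions at the ends of the ratio ranges, shown as examples of single regions. They were read from the RefSeq TAIR10.1 assembly, whose chromosome lengths match the coordinates of the regions. Capitals mark bases inside a 24-base word that occurs once in the genome on either strand, and lower case marks bases found only in repeated words. The stretches with the highest nrpe1, arid2/3/4 and hda6 ratios are in lower case throughout. Those lowest in epcr1/2 and nrpe1, and the one at 0 in hda6, are in capitals throughout. Exceptions are the highest epcr1/2 stretch, with 151 of its 200 bases in capitals, and the lowest arid2/3/4 stretch, mostly a CTT repeat, with 43.
Highest hda6 ratio (TAIR10, + strand, chr2:1151-1350): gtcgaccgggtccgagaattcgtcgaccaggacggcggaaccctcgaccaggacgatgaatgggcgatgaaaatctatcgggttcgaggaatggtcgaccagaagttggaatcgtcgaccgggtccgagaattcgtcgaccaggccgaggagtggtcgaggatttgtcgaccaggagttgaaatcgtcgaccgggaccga
Listed at 0 in hda6 and 2 in arid2/3/4 (TAIR10, + strand, chr5:491651-491850): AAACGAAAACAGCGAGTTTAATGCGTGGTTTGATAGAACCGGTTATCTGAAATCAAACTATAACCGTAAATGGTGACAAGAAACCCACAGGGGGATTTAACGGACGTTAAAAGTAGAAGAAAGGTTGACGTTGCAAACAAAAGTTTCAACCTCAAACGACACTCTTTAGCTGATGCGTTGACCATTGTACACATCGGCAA
Highest arid2/3/4 ratio (TAIR10, + strand, chr5:11819151-11819350): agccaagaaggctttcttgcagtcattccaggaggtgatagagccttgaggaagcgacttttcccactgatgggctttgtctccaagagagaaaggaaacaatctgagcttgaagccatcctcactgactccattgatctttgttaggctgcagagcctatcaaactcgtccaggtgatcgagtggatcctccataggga
Lowest arid2/3/4 ratio (TAIR10, + strand, chr1:7025151-7025350): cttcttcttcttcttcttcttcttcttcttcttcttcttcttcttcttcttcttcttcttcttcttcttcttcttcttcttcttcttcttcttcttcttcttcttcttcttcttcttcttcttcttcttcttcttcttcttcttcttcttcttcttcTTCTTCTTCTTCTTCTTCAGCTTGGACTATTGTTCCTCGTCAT
Highest epcr1/2 ratio (TAIR10, + strand, chr2:3613151-3613350): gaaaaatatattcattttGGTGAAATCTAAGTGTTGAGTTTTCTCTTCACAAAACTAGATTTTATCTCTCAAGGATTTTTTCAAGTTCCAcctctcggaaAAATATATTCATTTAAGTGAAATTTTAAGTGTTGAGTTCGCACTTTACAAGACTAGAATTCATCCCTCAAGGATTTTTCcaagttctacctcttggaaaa
Lowest epcr1/2 ratio (TAIR10, + strand, chr3:21277070-21277269): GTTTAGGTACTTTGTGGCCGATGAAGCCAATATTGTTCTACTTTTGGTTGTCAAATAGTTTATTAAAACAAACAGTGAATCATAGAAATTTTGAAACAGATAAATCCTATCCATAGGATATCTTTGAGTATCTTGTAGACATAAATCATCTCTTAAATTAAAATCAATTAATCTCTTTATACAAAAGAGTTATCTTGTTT
Lowest nrpe1 ratio (TAIR10, + strand, chr1:11132651-11132850): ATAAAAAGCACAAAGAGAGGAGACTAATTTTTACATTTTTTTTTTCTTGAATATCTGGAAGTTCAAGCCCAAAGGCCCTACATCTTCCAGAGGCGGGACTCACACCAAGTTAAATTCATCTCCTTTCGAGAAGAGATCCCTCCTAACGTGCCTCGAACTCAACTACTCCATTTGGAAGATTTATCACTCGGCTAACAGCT
Highest nrpe1 ratio (TAIR10, + strand, chr1:16287151-16287350): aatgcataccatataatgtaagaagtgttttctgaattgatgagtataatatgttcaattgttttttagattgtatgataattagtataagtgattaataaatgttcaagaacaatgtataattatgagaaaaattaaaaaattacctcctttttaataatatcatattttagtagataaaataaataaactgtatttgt

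The score of a region is its deposited small RNA abundance, a whole number on a scale that the sources used here do not state. Wild-type scores of the 1568 regions ran from 87 to 259 with a median of 117, against a median of 209 in the regions listed in both repeats. Only 82 regions scored under 100 in wild type. The 1568 regions held 13.2% of the summed wild-type score of the repeat 1 list and 18.6% of the summed hda6 score. In the other libraries the share lay between 12.9% (nrpd1) and 14.3% (arid2/3/4). As a set of similar abundance, the 2735 regions of both repeats whose repeat 1 wild-type score also lay from 87 to 259 (median 170) are used below. These 2735 regions also had to be listed in repeat 2, where no region of both lists scored under 98 in wild type, so the sets differ by the rule itself as well as by position.

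The 1568 regions lay in the same broad parts of the chromosomes as the regions of both repeats, but over different annotated features. Pericentromeres, here the 3 Mb on either side of a set centromere position, held 1113 regions (71.0%), against 70.7% of the regions of both repeats. Chromosomes 1 to 5 held 391, 270, 308, 259 and 340 regions. RefSeq pseudogenes, a class that in this annotation has no separate entry for transposons, overlapped 588 regions (37.5%), against 15.4% of the regions of both repeats. In pericentromeres the pseudogene share was 48.2%, against 18.9%.

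The regions were also less repeated and richer in G and C. The median region had 4 genome copies of its median 24-base word, against 8 in the regions of both repeats, and 276 regions (17.6%) were mostly single-copy, meaning that at least 80% of their words occurred once, against 7.14%. On the chromosome arms the mostly single-copy share was 37.1%, against 13.0%. Median G and C content was 38.0%, against 34.4%. Bases that the assembly marks as repeats made up a median of 38.6% of a region, against 86.6%. In the 2735 regions of both repeats in the same wild-type range, the median was 7 copies and 8.12% were mostly single-copy. Their median G and C content was 35.0%, their median share of bases marked as repeats 83.8%, and their pseudogene share 17.7%. The wild-type score still differs between the sets, as given above, and its part in these differences was not tested.

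Outside pseudogenes, 147 regions overlapped protein-coding genes (86 a coding exon, 50 an untranslated exon and 11 an intron), 166 lay within 1 kb upstream of one and 23 overlapped a non-coding RNA gene. The remaining 644 regions had none of these. Regions in or within 1 kb upstream of protein-coding genes made up 21.2% of the 1568 regions by any overlap, and 21.1% of the regions of both repeats. By product name, few regions touched any class, and the shares in the regions of both repeats are given for comparison. Genes of kinases were touched by 16 regions (1.02%, against 1.04%) and genes of F-box proteins by 12 (0.765%, against 0.712%). Genes of transcription factors or zinc finger proteins were touched by 16 (1.02%, against 0.665%) and genes of disease resistance proteins by 7 (0.446%, against 0.142%). A cytochrome P450 gene was touched by 1 region (0.0638%, against 0.190%) and a defensin gene by 1 (0.0638%, against 0.0475%).

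Counting only the 1568 regions, single windows numbered 1165, another 294 regions formed pairs, and 109 regions formed the 33 runs of 3 to 7 adjoining windows. A region listed in both repeats adjoined 466 regions (29.7%), and 75 regions lay between a pair of them. No listed region of any kind adjoined 794 regions (50.6%), against 29.2% of the regions of both repeats. By shared sequence, with regions joined into a family when they shared at least 50% of their words, 1218 regions had no relative among the 1568 and 244 had a relative listed in both repeats.

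**Figure D1:**
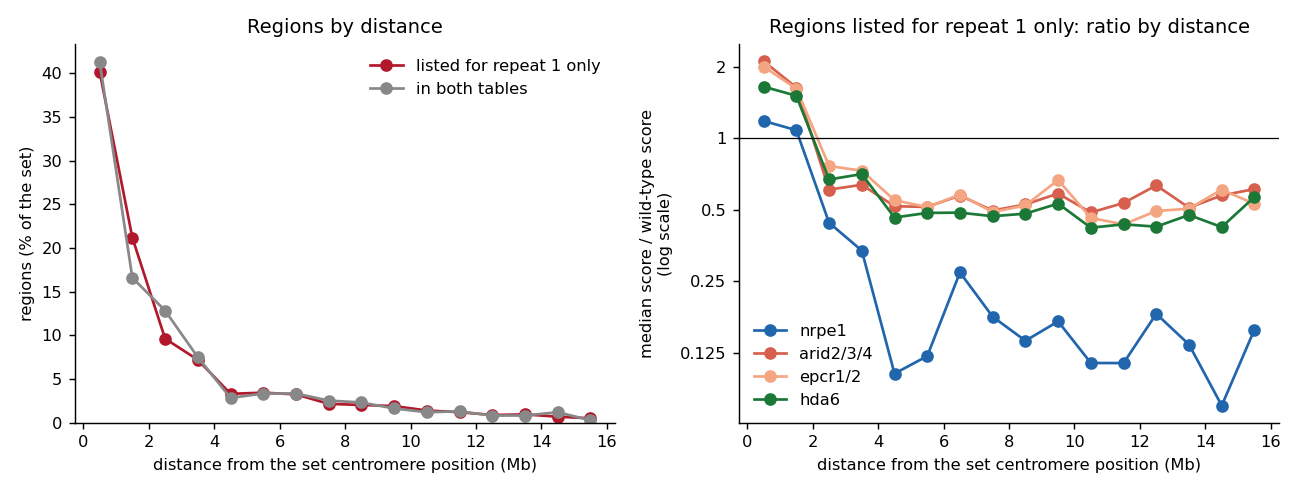
Left, share of the regions of each set (%) by distance from the set centromere position (Mb). Right, median ratio of score to wild-type score (log scale) over the regions listed for repeat 1 only, in the same 1 Mb bins. Both sets fall from about 40% of regions in the first Mb, and the 4 median ratios lie above 1 within 2 Mb and below 1 beyond it.

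In nrpd1, the mutant of the RNA polymerase IV subunit, scores ran from 0 to 19 with a median of 1, and 395 of the 1568 regions were listed at 0, out of 972 of the 5843 in the whole repeat 1 list. All 1568 scored at or past 2-fold lower than wild type, as did 100% of the repeat 1 list. The list appears to have been drawn up on low nrpd1 scores, so these values describe the list. The highest ratio was 0.172, in a region within 1 kb upstream of AT3G55960, which encodes a haloacid dehalogenase-like hydrolase, where wild type scored 87 and nrpd1 15. A region on the chromosome 3 pericentromere had the highest nrpd1 score, 19 against 118 in wild type. The remaining region named for its nrpd1 ratio lay 300 bp upstream of NHX1, a sodium/proton exchanger gene, with 89 in wild type and 13 in nrpd1.

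In nrpe1, the mutant of the RNA polymerase V subunit, 514 of the 1568 regions scored at or past 2-fold lower than wild type, against 37.2% of the repeat 1 list, and 0 scored at or past 2-fold higher, against 0.222%. That is 32.8% of the regions, near the background share. The median ratio was 0.96, and it became 1.19 when libraries were scaled to a common median. Arms and pericentromeres differed. The 455 arm regions had a median ratio of 0.17, with 355 at or past 2-fold lower, and the 1113 pericentromeric regions had a median of 1.11, with 159 lower. The regions of both repeats in the same wild-type range split alike, with medians of 0.23 over 755 arm regions, 595 of them lower, and 1.28 over 1980 pericentromeric regions, 325 of them lower. The change came about 2 Mb from the centromere position, where the median went from 1.08 to 0.44 between adjoining 1 Mb bins.

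In arid2/3/4, 318 regions scored at or past 2-fold lower than wild type, against 19.2% of the repeat 1 list, and 508 higher, against 27.7%. In epcr1/2 the counts were 267 lower, against 12.3%, and 442 higher, against 32.3%. The members' shares were 20.3% and 32.4% for arid2/3/4 and 17.0% and 28.2% for epcr1/2. Both mutants were split by position: pericentromeric medians were 1.86 in arid2/3/4 and 1.83 in epcr1/2, and arm medians were 0.54 and 0.56. In the regions of both repeats in the same wild-type range they were 1.69 and 2.02, and 0.57 and 0.71. Scaling to a common median multiplied ratios by 0.802 and 0.691 and left each of these medians of the 1568 regions on its side of 1, whereas the median over all 1568 epcr1/2 ratios went from 1.34 to 0.93. On that scale 30.5% of the regions were lower and 17.9% higher in arid2/3/4, and 28.3% lower and 4.08% higher in epcr1/2, so the balance of higher and lower regions in both mutants turns on a scaling that is not known.

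In hda6, the histone deacetylase mutant, 319 regions scored at or past 2-fold lower than wild type, against 20.2% of the repeat 1 list, and 243 scored higher, against 6.47%. The regions above 2-fold were 15.5% of the 1568 and 3.99% of the 2735 regions of both repeats in the same wild-type range. The median ratio was 1.26 over the 1568 regions and 0.72 over the 2735. Between the repeats the same 2735 regions went from 109 to 597 at or past 2-fold higher in hda6 and from a median ratio of 0.72 to 0.82, and the 1568 regions have values from repeat 1 only. Scaling moved hda6 ratios little, by a factor of 0.983. No replicate exists to set against this gap. The 5 ratios of a region all share its 1 wild-type score, and the part of that score in the gap was not tested.

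The hda6 medians of the 2 sets differed by wild-type score and by feature, not always in the same direction. Among regions with wild-type scores under 110 the median hda6 ratio was 1.27 over 555 regions listed for repeat 1 only and 0.56 over 135 regions of both repeats. From 110 to 129 the medians were 1.33 and 0.60, from 130 to 149 they were 1.42 and 0.74, and from 150 to 199 they were 1.11 and 0.79. From 200 to 259 the order turned, with 0.69 over 12 regions and 0.72 over 788. Within pericentromeres the medians were 1.55 and 0.89. In pericentromeric regions outside all annotated classes they were 1.33 and 0.79, whereas in pericentromeric pseudogenes they lay closer, at 1.84 and 1.67. On the arms both sets were low, at 0.50 and 0.54. The regions listed for repeat 1 only also had the lower median in gene bodies (0.47 and 0.54), upstream of genes (0.47 and 0.54) and in mostly single-copy regions (0.45 and 0.50).

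**Figure D2:**
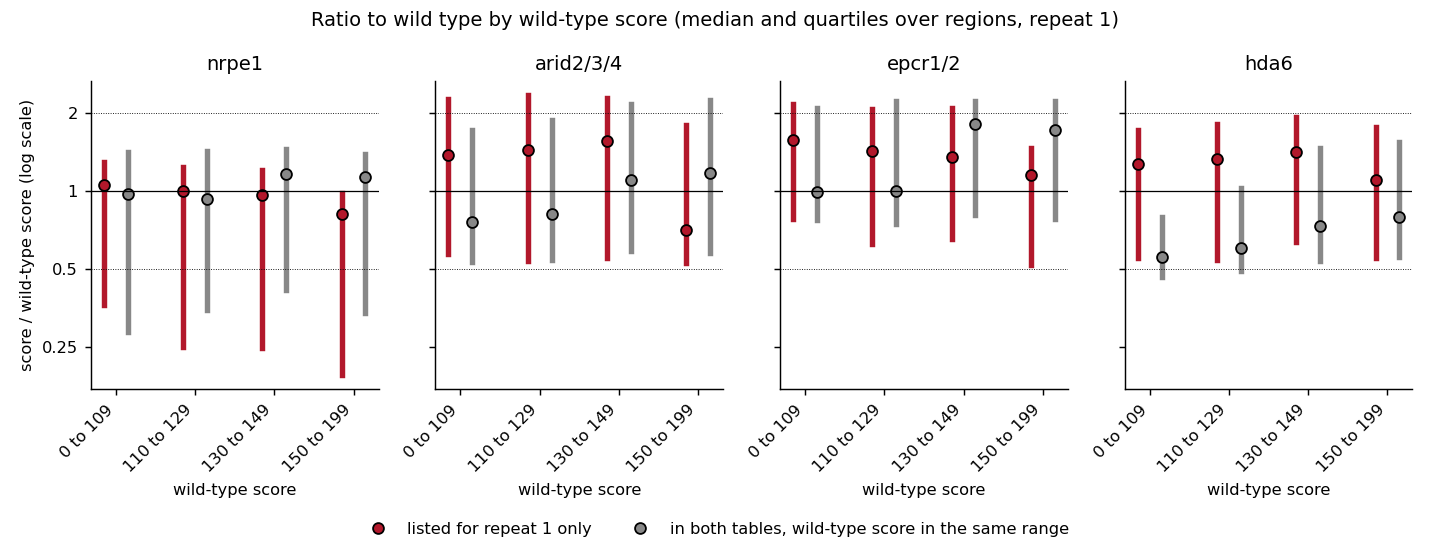
Ratio of score to wild-type score (log scale) by wild-type score, as medians (points) and quartiles (bars) over regions in repeat 1. Red marks regions listed for repeat 1 only and grey marks regions of both repeats in the same range, and in the hda6 panel the 4 red medians (1.11 to 1.42) lie above 1 and the 4 grey medians (0.56 to 0.79) below it. Scores of 200 to 259, with 12 red regions and medians of 0.69 (red) and 0.72 (grey), are not drawn.

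The other mutants showed smaller or changing gaps on the same classes. For arid2/3/4 the medians under 110 were 1.38 over the regions listed for repeat 1 only and 0.76 over those of both repeats, and from 150 to 199 they were in the other order, 0.71 and 1.18. For epcr1/2 the medians under 110 were 1.57 and 0.99, and from 130 to 149 they were 1.35 and 1.81. For nrpe1 they were 1.06 and 0.97 under 110, and 0.81 and 1.13 from 150 to 199. A common-median scale multiplies both sets alike and leaves these orders as they are, although it moves the epcr1/2 medians of the regions listed for repeat 1 only from 110 to 199 below 1 (0.99, 0.93 and 0.80).

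As in the regions of both repeats, 2 contrasting kinds of region stood out. One was pericentromeric pseudogenes, 537 regions, where wild type had a median score of 116 and the medians were 137 in nrpe1, 255 in arid2/3/4, 226 in epcr1/2 and 212 in hda6. All 4 mutants other than nrpd1 thus scored above wild type in most of these regions: 406 of 537 in nrpe1, 498 in arid2/3/4, 509 in epcr1/2 and 503 in hda6. The 437 such regions of both repeats in the same wild-type range did likewise, with 342, 376, 390 and 381. Ratios at or past 2-fold higher were reached by 304 regions in arid2/3/4, 243 in epcr1/2 and 196 in hda6. Of the 437, 244, 253 and 85 did so, or 55.8%, 57.9% and 19.5%, against 56.6%, 45.3% and 36.5% of the 537.

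The other kind was arm regions by protein-coding genes. Of 125 arm regions within 1 kb upstream of a gene, 118 scored at or past 2-fold lower in nrpe1, 62 in arid2/3/4, 63 in epcr1/2 and 79 in hda6, and none was 2-fold higher in any of the 4. That is 94.4%, 49.6%, 50.4% and 63.2% of them, against 86.0%, 31.9%, 26.4% and 43.4% of the 235 such regions of both repeats in the same wild-type range, where again none was 2-fold higher. Median scores there were 112 in wild type, 14 in nrpe1, 56 in arid2/3/4, 57 in epcr1/2 and 51 in hda6. The 111 arm regions in gene bodies had similar medians, with ratios of 0.11 in nrpe1, 0.52 in arid2/3/4, 0.50 in epcr1/2 and 0.47 in hda6. The mostly single-copy regions, on arms or not, had median ratios of 0.08 in nrpe1, 0.39 in arid2/3/4, 0.44 in epcr1/2 and 0.45 in hda6, against 0.08, 0.42, 0.53 and 0.50 in the 222 such regions of both repeats. None of the 276 or of the 222 was at or past 2-fold higher in hda6.

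**Figure D3:**
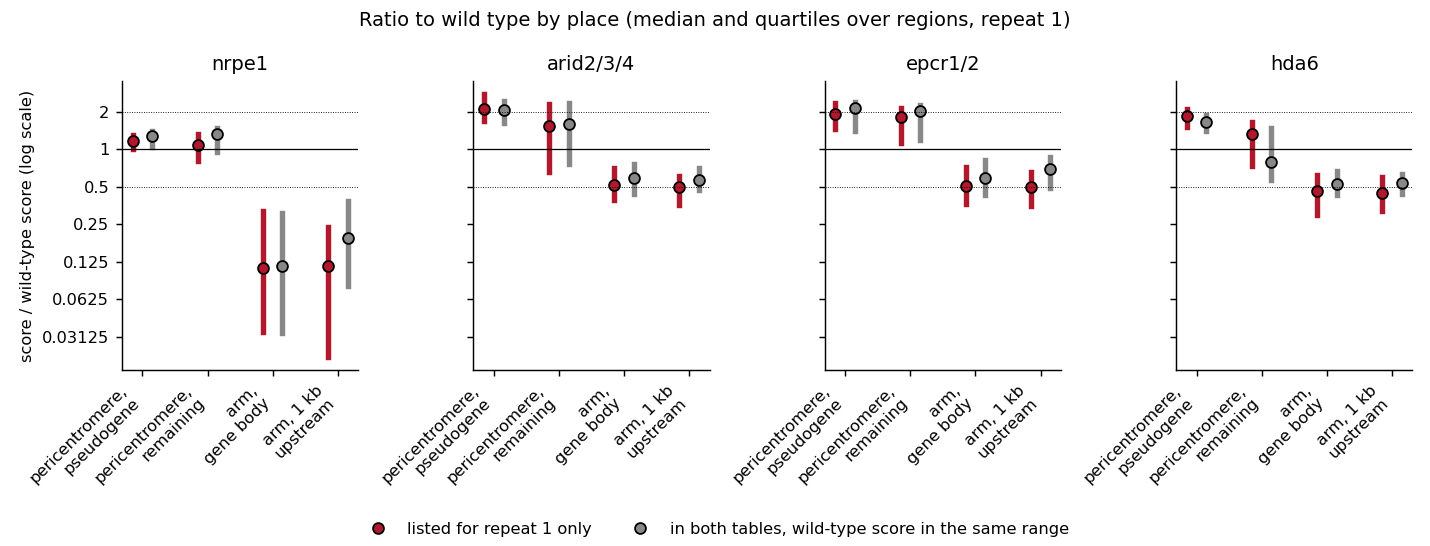
Ratio of score to wild-type score (log scale) in 4 kinds of place, as medians (points) and quartiles (bars) over regions in repeat 1. Dotted lines mark 2-fold, red marks regions listed for repeat 1 only and grey marks regions of both repeats with wild-type scores in the same range. Pericentromeric medians of the red set lie from 1.09 to 2.12 and arm medians from 0.11 to 0.52.

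Regions beside ribosomal RNA genes had the highest hda6 scores. The region at chr2:1001-1500, whose central 200 bases open the sequences above, scored 128 in wild type, 9 in nrpd1, 123 in nrpe1, 374 in arid2/3/4, 440 in epcr1/2 and 1370 in hda6, a ratio of 10.7. It overlaps AT2G01008, annotated as a maternal effect embryo arrest protein, and ends 2206 bp before the 18S ribosomal RNA gene AT2G01010. Its relative at chr3:14195001-14195500, 2177 bp from the 18S gene AT3G41768, scored 130 in wild type, 9 in nrpd1, 124 in nrpe1, 372 in arid2/3/4, 441 in epcr1/2 and 1354 in hda6. Another relative at chr3:14192001-14192500 scored 145, 9, 151, 410, 553 and 1336 in the same order of libraries.

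These 3 regions share sequence, so reads from one could have been counted at the others, and they are not 3 separate measurements. In each of them hda6 stood highest, epcr1/2 and arid2/3/4 scored 2.83 to 3.81 times wild type, and nrpe1 0.954 to 1.04 times. The adjoining window chr2:1501-2000, listed in both repeats, was also highest in hda6, with 375 in wild type and 6186 in hda6 in repeat 1, and 391 and 4136 in repeat 2. There arid2/3/4 scored above epcr1/2, at 1643 and 1052 in repeat 1. In all, 9 of the 1568 regions lay within 20 kb of an 18S gene. The other 6 had hda6 ratios from 1.96 to 3.53.

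**Figure D4:**
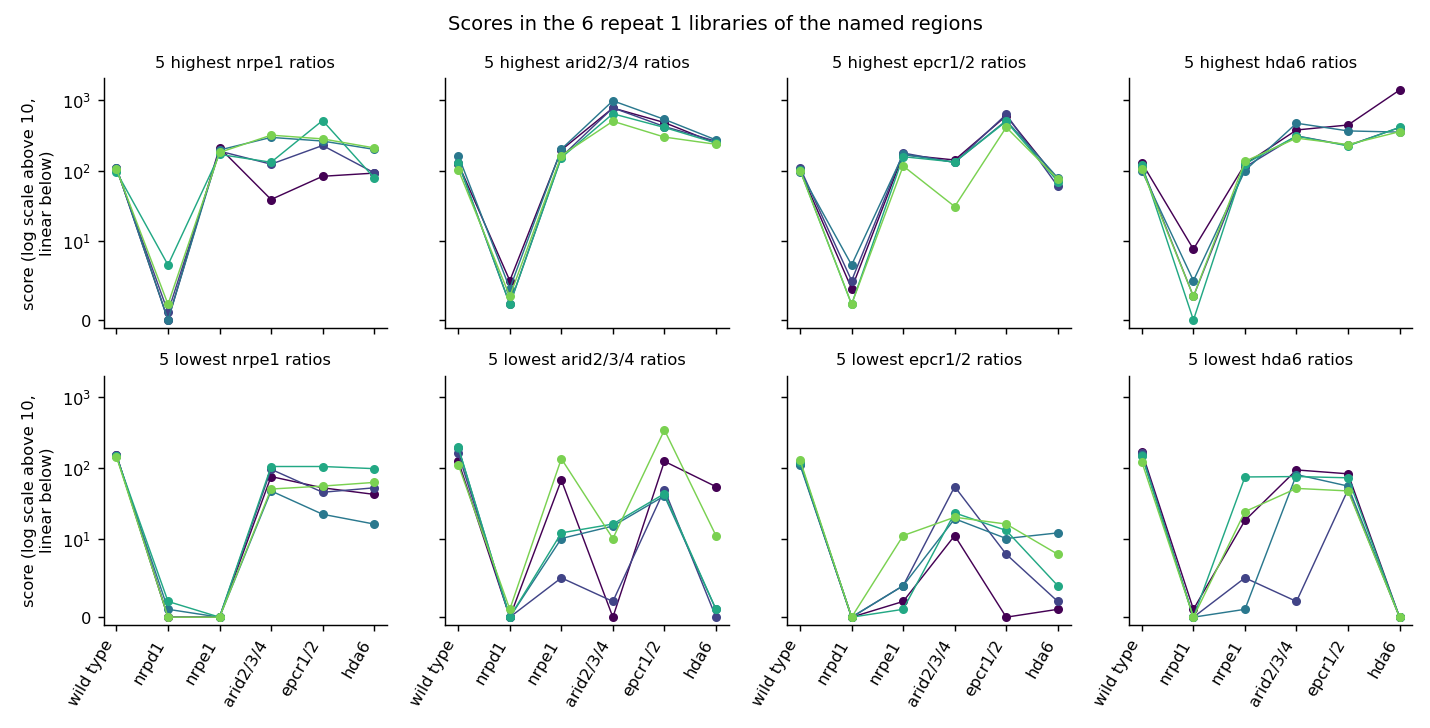
Scores (log scale above 10, linear below) in the 6 repeat 1 libraries, with 1 line for each region. Each panel shows the 5 regions highest (top) or lowest (bottom) in ratio to wild type in nrpe1, arid2/3/4, epcr1/2 or hda6. Only 1 region for each family and run of adjoining windows was taken. Relatives of a drawn region are thus not shown, such as chr3:14195001-14195500, with an hda6 ratio of 10.4. The highest hda6 region reaches 1370, and the 5 regions drawn as highest in epcr1/2 (408 to 621) stay under 180 in the other libraries.

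The other regions named for high hda6 ratios, 1 for each family and run, were pericentromeric pseudogenes or near the tip of chromosome 2. In AT2G11430 wild type scored 113, nrpd1 3, nrpe1 112, arid2/3/4 309, epcr1/2 226 and hda6 405. In AT5G33252 the scores were 120, 0, 124, 307, 223 and 407, and in AT2G04670 they were 105, 3, 135, 287, 233 and 354. The region at chr2:13501-14000 scored 99 in wild type, 349 in hda6 and more, 466, in arid2/3/4. In each of these, arid2/3/4 and epcr1/2 were also at least 1.86 times wild type, and nrpe1 lay within 1.29 times of it.

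The longest run, 7 adjoining windows at chr5:9183501-9187000 inside the pseudogene AT5G26236, had hda6 above every other library throughout. Wild-type scores were 118 to 168 and hda6 scores 248 to 397, with 6 of 7 windows at or past 2-fold higher. Arid2/3/4 scored 196 to 318, epcr1/2 165 to 252, nrpe1 127 to 185 and nrpd1 0 to 2. The next runs, 5 windows in AT3G31630 and 4 in AT1G42605, had the same order of medians among wild type, epcr1/2, arid2/3/4 and hda6. These were 107, 171, 227 and 274 in the first, and 132.5, 191.5, 224.5 and 284.5 in the second. The nrpe1 medians there, 134 and 147, lay above wild type, whereas in the longest run nrpe1 had 139 and wild type 140. The 3 runs share families of sequence, so they are not independent.

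**Figure D5:**
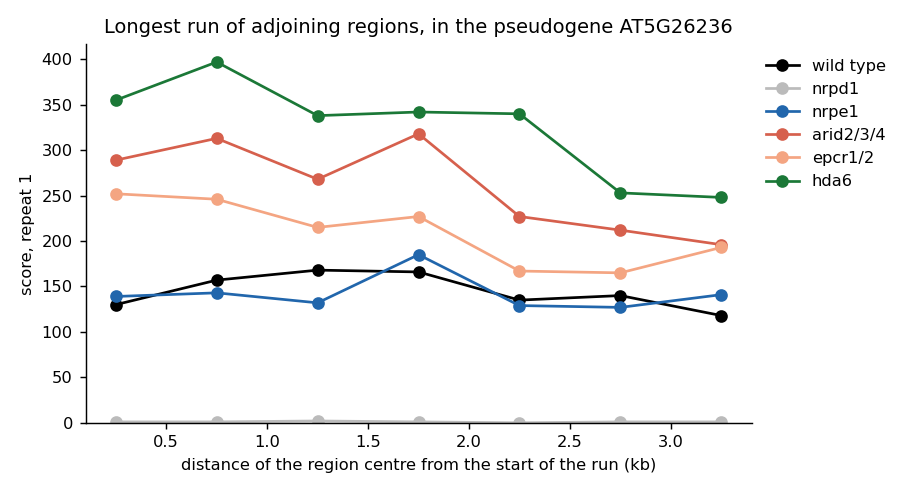
Scores in repeat 1 along the longest run of adjoining regions, by distance of each region's centre from the start of the run (kb), 1 line for each library. The hda6 line (248 to 397) is the highest in all 7 windows and nrpd1 (0 to 2) the lowest.

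Families of related sequence could be followed into repeat 2 through their relatives listed in both repeats. Regions of a family share sequence and may share reads, so they are not separate measurements, here or in the families below. Family A, 13 regions in pseudogenes of 3 chromosomes, was chosen after its values were seen. It had median scores of 113 in wild type (97 to 138) and 594 in arid2/3/4 (385 to 764). Its medians were 376 in epcr1/2, 205 in hda6, 166 in nrpe1 and 4 in nrpd1. Its 13 relatives in both repeats had repeat 2 medians of 0 in nrpd1, 120 in wild type, 148 in nrpe1, 303 in hda6, 579 in epcr1/2 and 669 in arid2/3/4. The order of the 6 libraries was the same.

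A family of 8 regions in pseudogenes, which includes windows of the longest run, had hda6 highest: 141.5 in wild type, 147 in nrpe1, 184.5 in epcr1/2, 272 in arid2/3/4 and 329 in hda6. The epcr1/2 ratio of this family, 1.34, was 0.93 on the common-median scale. Its 10 relatives had repeat 2 medians of 136.5 in wild type, 134 in nrpe1, 276.5 in epcr1/2, 414.5 in arid2/3/4 and 426.5 in hda6. By contrast, a family of 14 regions, all on the chromosome 1 pericentromere, was low in arid2/3/4. Its wild-type scores were 162 to 187 and its arid2/3/4 scores 105 to 130, with hda6 at 186 to 218, epcr1/2 at 190 to 229, nrpe1 at 135 to 162 and nrpd1 at 0 in every region. On the common-median scale its median ratio went from 0.85 to 1.06 in nrpe1 and from 1.21 to 0.83 in epcr1/2. Only 2 relatives were listed in both repeats, with repeat 2 medians of 102.5 in wild type and 120.5 in arid2/3/4, so arid2/3/4 was not below wild type there. The arid2/3/4 median of the 14 regions in repeat 1 was close to this, at 119, whereas their wild-type median was 176.5. The relatives are also other regions.

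Neighbours gave a wider view of repeat 2. The 494 regions of both repeats that adjoin one of the 1568 had median wild-type scores of 185 in repeat 1 and 135 in repeat 2, a median ratio of repeat 2 to repeat 1 of 0.749, against 0.811 over all regions of both repeats. Their median hda6 ratios were 1.47 in repeat 1 and 1.88 in repeat 2, and over all regions of both repeats 0.66 and 0.81. At or past 2-fold higher in hda6 were 58 of the 494 in repeat 1 and 213 in repeat 2. The 702 family relatives in both repeats had median hda6 ratios of 1.31 and 1.66, arid2/3/4 ratios of 1.82 and 2.68 and epcr1/2 ratios of 2.02 and 2.83. These neighbours and relatives are other regions, and the scores of the 1568 in repeat 2 are not analysed here.

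The highest arid2/3/4 ratios were all in pericentromeric pseudogenes. The region at chr5:11819001-11819500 in AT5G32125, shown among the sequences, scored 125 in wild type, 5 in nrpd1, 195 in nrpe1, 764 in arid2/3/4, 476 in epcr1/2 and 243 in hda6. In AT2G09187 wild type scored 128 and arid2/3/4 769, in AT1G36795 129 and 634, and in AT5G31963 103 and 497. The region in AT5G31719 scored 163 in wild type and 967 in arid2/3/4 and overlaps the annotated microRNA gene MIR854d. In all 5, epcr1/2 came next, at 297 to 528, and then hda6, at 235 to 271.

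Of the 11 regions that overlap microRNA genes, 5 lay at MIR854b, MIR854d and MIR854e on the chromosome 5 pericentromere, within pseudogenes. They scored 121 to 163 in wild type, 1 to 4 in nrpd1, 160 to 201 in nrpe1, 554 to 967 in arid2/3/4, 347 to 528 in epcr1/2 and 222 to 279 in hda6. These sequences have about 7 or 8 genome copies, so the 5 regions may share reads. The other 6 regions, at MIR406, MIR5635b, MIR8167a, MIR5645a, MIR5645b and MIR5645f, scored 99 to 126 in wild type and 6 to 50 in nrpe1. Their arid2/3/4 scores were 39 to 124, with the highest at MIR8167a. The scores count small RNAs over whole 500 bp windows, and nrpd1 scored 4 or less in all 11.

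The highest epcr1/2 ratios belonged to regions outside pseudogenes, 4 of them close together on the chromosome 2 pericentromere. The region at chr2:3613001-3613500, shown above, scored 100 in wild type, 4 in nrpd1, 167 in nrpe1, 141 in arid2/3/4, 592 in epcr1/2 and 74 in hda6. At chr2:3629501-3630000 wild type scored 109 and epcr1/2 621, at chr2:3686501-3687000 96 and 509, and at chr2:3701001-3701500 101 and 494. The fifth region, chr3:12135001-12135500, scored 100 in wild type, 116 in nrpe1, 31 in arid2/3/4, 408 in epcr1/2 and 76 in hda6. In these 5 regions hda6 lay below wild type, at 60 to 79, and epcr1/2 at least 4.08 times above it.

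Regions low in arid2/3/4 were of several kinds. The CTT repeat at chr1:7025001-7025500, 48 bp downstream of AT1G20290, was listed at 0 in arid2/3/4 and scored 124 in wild type, 67 in nrpe1, 123 in epcr1/2, 54 in hda6 and 0 in nrpd1. Its median word has 1335 copies in the genome, so its score depends on how reads with many matches were placed, which the sources used here do not state. The single-copy region at chr5:491501-492000, shown above, scored 159 in wild type, 5 in nrpe1, 2 in arid2/3/4, 49 in epcr1/2 and 0 in hda6. At chr2:1897501-1898000 the scores were 192 in wild type, 10 in nrpe1, 15 in arid2/3/4, 40 in epcr1/2 and 1 in hda6, and at chr2:1905001-1905500 they were 194, 12, 16, 43 and 1. Only 57.4% and 57.7% of the words of these 2 regions occurred once in the genome. Their scores were close in every library, and whether they share reads was not tested. The region at chr3:11227001-11227500 went separate ways, with 110 in wild type, 134 in nrpe1, 10 in arid2/3/4, 11 in hda6 and 341 in epcr1/2.

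Regions low in epcr1/2 were single-copy and low in the other mutants too. The region over AT3G57480, which encodes a zinc finger protein, scored 114 in wild type, 2 in nrpe1, 11 in arid2/3/4, 0 in epcr1/2 and 1 in hda6. The other 4 scored 109 to 128 in wild type and 8 to 16 in epcr1/2, and one of them lies in CBL2, a calcineurin B-like calcium sensor gene. In these 4, hda6 scored 2 to 12 and nrpe1 1 to 11, and arid2/3/4 reached 54 in the region near AT3G49765.

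In nrpe1, 17 regions were listed at 0, all on the arms and 15 of them mostly single-copy, out of 37 in the whole repeat 1 list. The region 410 bp upstream of SRX, a sulfiredoxin gene, scored 152 in wild type, 0 in nrpd1, 0 in nrpe1, 75 in arid2/3/4, 52 in epcr1/2 and 42 in hda6. The region 301 bp upstream of AT5G56050 scored 151, 0, 0, 95, 45 and 52 in the same libraries, and the one 151 bp upstream of MEE32, a gene of the shikimate pathway, 143, 0, 0, 50, 55 and 62. In all, 146 regions scored at or under 5% of wild type in nrpe1, against 35 in hda6, 2 in arid2/3/4 and 1 in epcr1/2. No such count was made over the whole repeat 1 list, so these counts do not set the regions apart from it. At the other end, the highest nrpe1 ratio was 1.91, at chr1:16287001-16287500, with 110 in wild type, 210 in nrpe1 and 39 in arid2/3/4.

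In hda6, 8 regions were listed at 0, of which 6 were mostly single-copy and 7 lay on the arms. The whole repeat 1 list held 10 regions at 0 in hda6. The region in AT2G46765 scored 166 in wild type, 18 in nrpe1, 93 in arid2/3/4, 82 in epcr1/2 and 0 in hda6. Near AT1G28120 the scores were 149, 1, 80, 55 and 0 in the same libraries, and in the pseudogene AT2G22710 they were 147, 74, 75, 72 and 0. One of the 8, 307 bp upstream of FED A, a ferredoxin gene, was at 0 in nrpe1 as well. Arid2/3/4 scored 31 to 93 in 7 of these 8 regions and 2 in the eighth, the region at chr5:491501-492000.

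The 5 regions with the highest wild-type scores were all low in nrpe1. The first, in AT3G55930, a gene for a pre-mRNA splicing factor, scored 259 in wild type, 20 in nrpe1, 159 in arid2/3/4, 86 in epcr1/2 and 172 in hda6. The second, 18 bp upstream of SPH8, an S-protein homologue gene, scored 258, 3, 125, 143 and 183. The third, 52 bp upstream of AT5G26622, scored 256, 12, 46, 38 and 5. The other 2 of the 5 lay outside annotated genes on the pericentromeres and scored above wild type in hda6, with 243 in wild type, 107 in nrpe1 and 281 in hda6 at chr2:5779001-5779500, and 240, 94 and 266 at chr5:13379001-13379500. All 12 regions with wild-type scores of 200 or more were at or past 2-fold lower in nrpe1, against 301 of the 788 regions of both repeats from 200 to 259. These regions were picked by the wild-type score that also divides each ratio, and its part in the low ratios was not tested.

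Among 8 loci known from RNA-directed DNA methylation studies, 1 had a region of this set within 2 kb. This was SDC, an F-box gene that is silenced by DNA methylation in its promoter. The region, at chr2:7682001-7682500, overlaps an untranslated exon of SDC and was not classed as upstream of it. It scored 102 in wild type, 0 in nrpd1, 62 in nrpe1, 97 in arid2/3/4, 70 in epcr1/2 and 86 in hda6. All mutants other than nrpd1 thus kept at least 0.608 of the wild-type score there. MEA and AtMu1 had regions listed in both repeats, and FWA, ROS1, EPF2, QQS and PHE1 had none in either list.

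At the edges of the stretch left out of chromosome 4, the regions just inside and outside it had wild-type scores of 99 to 143. The last region kept before it, at 379001, scored 143 in wild type, 0 in nrpe1 and 1 in hda6, and the first left out, at 929501, scored 105, 0 and 45. The last left out, at 2898001, scored 99 in wild type and 227 in hda6, and the first kept after it, at 2923001, scored 106 and 76.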

How the data were processed

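Small RNA sequencing of whole seedlings gave 12 libraries, 1 for each of 6 genotypes in 2 repeats. Per the submitters' processing notes, reads were aligned with Bowtie 0.12.2 to TAIR10. The authors deposited, for each repeat, a list of 500 bp regions with a score for every genotype, whole numbers that look like scaled abundances. Small RNA sizes, treatment of reads with several matches, scaling and the choice of regions are not stated in the labels or headers. The depth is therefore unknown and no counting interval is given. The score sums over the repeat 1 list were 1461310 in wild type, 19254 in nrpd1 and 1153948 to 1993606 in the other libraries.

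Listed coordinates count from 0 and were converted to count from 1. Each mutant score was divided by the wild-type score of the same region, with no pseudocount, and the limit for lower or higher was 2-fold. Features came from the RefSeq annotation, given to each region in the order pseudogene, protein-coding gene body, 1 kb upstream, non-coding RNA gene. Centromere positions were set by hand in round numbers. Copies of 24-base words were counted on both strands of the genome, and families joined regions sharing at least 50% of words. The members, gene lists and classes were chosen with earlier results of these data known. Named regions are the 5 highest and lowest by ratio in each mutant other than nrpd1, 1 for each family and run, the 5 highest in wild type, the 3 highest by nrpd1 ratio, the 3 longest runs, and those at the listed loci. The microRNA regions beyond 5, the regions beside ribosomal RNA genes, the remaining regions at 0 and the 3 sequence families with values were added after their values were seen. Python 3.11.15, numpy 2.4.6 and pandas 2.3.3 were used. The 2-fold limit was tried on wild-type scores changed by a set fold without noise, an outcome fixed in advance. A sample of word counts was checked by direct search.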

Additional observations from a re-analysis of the deposited data

How the results depend on the processing

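Percentages here are of regions listed for repeat 1 only, lower or higher than wild type at the 2-fold limit, and medians are log2 ratios. Including the chromosome 4 stretch gave 1630 regions, which hold all 1568, so close values were largely fixed in advance. The share lower in nrpe1 was then 32.6%, against 32.8%, and no median turned. Percentages given below lie outside the binomial interval of the main value. That interval counts regions as independent although repeated sequences share reads, so it serves only to choose which values are printed. Counting 1 region per family gave 37.7% lower in nrpe1, 23.4% lower and 28.6% higher in arid2/3/4, 19.6% lower in epcr1/2, 23.4% lower and 13.6% higher in hda6, 68.5% in pericentromeres and 34.5% in pseudogenes. Regions not adjoining a repeat 2 region gave 39.8% lower in nrpe1, 24.2% lower and 28.9% higher in arid2/3/4 (median -0.050, reversed), 23.0% lower and 22.5% higher in epcr1/2, 24.4% lower in hda6, 66.5% in pericentromeres and 34.1% in pseudogenes. A minimum wild-type score of 150 gave 43.3% lower in nrpe1, 18.2% higher in arid2/3/4 (median -0.50, reversed), 25.6% lower and 14.3% higher in epcr1/2, 17.7% higher in hda6 and 29.1% in pseudogenes. Mostly single-copy regions gave 80.1% lower in nrpe1, 67.4% lower and 0.725% higher in arid2/3/4, 59.1% lower and 6.52% higher in epcr1/2, and 58.3% lower and 0% higher in hda6, with medians reversed to -1.36, -1.18 and -1.14 in the last 3 mutants. A common median scale gave 30.3% lower and 1.28% higher in nrpe1 (median 0.25, reversed), 30.5% lower and 17.9% higher in arid2/3/4, and 28.3% lower and 4.08% higher in epcr1/2 (median -0.11, reversed). A limit of 1.5-fold gave 36.3% lower and 5.10% higher in nrpe1, 33.2% lower and 46.3% higher in arid2/3/4, 25.7% lower and 46.3% higher in epcr1/2, and 32.5% lower and 39.9% higher in hda6. A pseudocount of 66 gave 22.4% lower in nrpe1, 3.44% lower and 16.7% higher in arid2/3/4, 1.98% lower and 8.80% higher in epcr1/2, and 5.04% lower and 3.51% higher in hda6. Pericentromeres of 2 Mb and 5 Mb on either side held 61.4% and 81.5% of the regions. Leaving out a replicate gives no value, since each genotype has 1 library for these regions. No paired analysis was possible because the results come from no test. Repeated sequences share reads, and neither the depth nor the spread between plants can be read from these scores.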
